A study of Homo sapiens with 9 samples.

Results

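The genes described here serve ribosome biogenesis and RNA polymerase I, the enzyme that transcribes ribosomal DNA, and they are read beside RNA45SN5, a gene of the long ribosomal RNA precursor itself. The list holds 38 genes, listed by name with no limit on a measured value, though earlier results of these arrays were known when it was drawn up. A gene had a value when the array annotation gave a probe set that symbol alone, and the brightest such probe set by mean log2 signal stood for the gene. In this way 33 of the 38 were measured, among 19775 genes in all, and the 33 were RNA45SN5 and 32 protein-coding genes. NOP56, DKC1, BOP1 and PPAN were named only on probe sets that carry further symbols, GNL3 had no probe set with its symbol in the annotation used here, and these 5 have no value below. The 33 measured genes lay above the floor signal of 12.5 on all 9 arrays, so no member was lost to low signal.

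The samples were U937, a human lymphoma line with monocyte-like features that grows in suspension. There was 1 array of unheated control cells cultured at 37 °C, and 8 arrays of cells heated for 15 min and returned to 37 °C: 4 after 42 °C and 4 after 44 °C, at 0, 1, 3 and 6 h of recovery. No other allele or agent is given in the labels, and the line stands for a single origin of cells. The control label gives no time in culture, so differences at later recovery times cannot be told apart from differences in culture time or handling.

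Ribosomes are built in the nucleolus. RNA polymerase I, guided by UBTF, RRN3 and the selectivity factor that contains TAF1D, transcribes a long precursor from which most of the ribosomal RNA is cut. Box C/D particles (NOP56, NOP58, FBL) guide methylation of that RNA and box H/ACA particles (DKC1, GAR1, NHP2) guide pseudouridine formation, while the small subunit processome and a succession of large subunit factors fold, cut and load it with ribosomal proteins.

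With 1 array per condition, no test was possible, no p-value is given, and each value describes these arrays. In the text below a gene rose or fell when its scaled signal differed by 2-fold or more, a log2 fold of 1, and other differences are given as values. As a yardstick, the robust SD of log2 differences among the control array and the pair of arrays at 0 h, over genes of like signal, was 0.23 to 0.46 for the members, with any early heat response counted as spread. Before scaling, the 2% trimmed mean signal of the arrays ran from 101 to 211. After scaling, the median log2 difference of 9 hybridisation spike-in probe sets from the control ran from -0.59 (1 h after 44 °C) to 0.71 (3 h after 42 °C), and before scaling from -0.47 to 0.027. The ratio of 3′ to 5′ probe sets, a sign of RNA integrity, was 1.18 to 1.36 for ACTB and 0.939 to 1.13 for GAPDH. Of 10 measured myeloid markers of the line, 8 were above the floor on every array and MPO and FCGR1A were at it, with a summed signal of 3752 to 5138 and 4585 in the control. Defining markers of other cells were mostly at the floor: CD3E, CD3G, CD8A and TRAT1 of 6 T cell markers, 5 of 7 epithelial and fibroblast markers and 2 of 3 erythroid markers on all arrays. The B cell markers CD79A and PAX5 were above it throughout, and the B cell sum ran from 97.6 to 172. The epithelial and fibroblast sum rose from 87.8 in the control to at most 343, through COL1A1. The part of these signals in the results below was not tested.

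The protein-coding members were near the control directly after heating and lower with recovery, while the signal of the precursor probe set was far higher at 1, 3 and 6 h. After 42 °C, the median log2 fold of the 32 genes was 0.084 at 0 h, -0.16 at 1 h, -0.26 at 3 h and -0.55 at 6 h. After 44 °C it was 0.010, -0.14, -0.18 and -0.52 at the same times. Genes above the floor on all arrays, 9913 of them, had medians between -0.056 and 0.022 in the same 8 comparisons. The number of members below the control after 42 °C was 13, 20, 22 and 28 of 32 at 0, 1, 3 and 6 h, and after 44 °C it was 14, 24, 22 and 27. Of the 9913 genes, 51.9%, 49.2%, 52.6% and 53.4% were below the control after 42 °C. After 44 °C, 47.4%, 49.6%, 51.9% and 55.1% of them were. The 8 comparisons share the control array, so a low or high control value moves them together. In total RNA of a whole culture, a smaller share of cells with a transcript and less of it per cell cannot be told apart.

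Few members passed 2-fold. After 42 °C, 0, 1, 2 and 5 of 32 fell at 0, 1, 3 and 6 h, beside 2.41%, 1.53%, 3.08% and 2.38% of all 19775 genes. After 44 °C, 0, 0, 2 and 4 fell, beside 1.03%, 0.455%, 1.41% and 2.64%. The shares are higher among the 9913 genes above the floor on all arrays, as all members were. There 3.84%, 2.36%, 4.91% and 3.71% fell after 42 °C, and 1.39%, 0.393%, 2.09% and 4.28% after 44 °C. Without scaling of the arrays, 22 would be lower at 6 h after 42 °C and 2 after 44 °C, where the median of genes above the floor lies at -0.65 and 0.15. Relative to that median the members' median at 6 h is -0.51 and -0.47 with or without scaling. That likeness follows from arithmetic, since scaling multiplies each array by a single factor, so it is no check of the scaling. No protein-coding member rose against the control on any array. Of all genes, 0.93%, 1.9%, 1.98% and 2.59% rose after 42 °C, and 0.855%, 0.925%, 1.16% and 2.51% after 44 °C. At 6 h a limit of 1.5-fold lower was passed by 14 members after 42 °C and 13 after 44 °C, against 8.56% and 8.94% of all genes. Of the 9913 genes above the floor on all arrays, 1411 and 1440 passed it. The lowering at 6 h was therefore mostly below 2-fold in size and spread over many members, and whether it is particular to these genes was not tested.

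RNA45SN5, the ribosomal RNA precursor gene, moved the other way from the protein-coding members. Its scaled signal was 85.3 in the control. After 42 °C it was 184 at 0 h, 905 at 1 h, 777 at 3 h and 510.4 at 6 h. After 44 °C it was 41.8, 297, 820.2 and 573. The signal thus rose at once after 42 °C and fell at once after 44 °C. In scaled signal, the arrays at 3 and 6 h were alike at both temperatures. The log2 folds against the control were 1.11, 3.41, 3.19 and 2.58 after 42 °C, and -1.03, 1.80, 3.27 and 2.75 after 44 °C. In size these are 2.16, 10.6, 9.11 and 5.99-fold higher after 42 °C, and 2.04-fold lower, then 3.48, 9.62 and 6.72-fold higher after 44 °C.

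Among 19775 genes ordered from the highest log2 fold, RNA45SN5 stood at place 137, 10, 16 and 28 after 42 °C. After 44 °C it stood at place 16, 8 and 27 at 1, 3 and 6 h, and at place 189 from the lowest at 0 h. From 0 to 1 h its signal was 4.92-fold higher after 42 °C and 7.09-fold higher after 44 °C, where it was a further 2.77-fold higher from 1 to 3 h. From 3 to 6 h the log2 change was -0.61 after 42 °C and -0.52 after 44 °C, so the signal had passed its highest measured point at both temperatures. A dimmer probe set of the gene had 23.3 in the control, 33.8, 135, 178 and 154 after 42 °C, and 14.2, 76.1, 253 and 170.5 after 44 °C. It has the same order of the 2 temperatures at each time, but its highest value after 42 °C lies at 3 h and not at 1 h. At 0 h its log2 folds were 0.54 and -0.71, within 2-fold on both sides. For the brighter probe set, the fall at 0 h after 44 °C is -0.97 without scaling of the arrays and -0.73 with a floor at the 70th percentile, short of 2-fold. Copies of the precursor gene are nearly identical, so the signal cannot be assigned to 1 copy. Where its probes lie within the precursor was not analysed here, and whether the 3′ amplification reads the precursor in proportion to its amount was not tested, so the folds are of array signal.

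**Figure D1:**
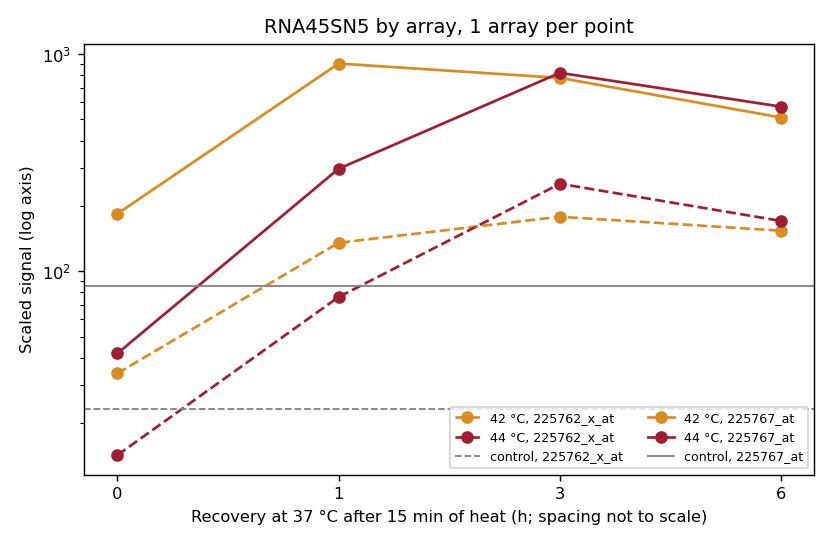
Scaled signal of RNA45SN5 (log axis) against recovery time in h after 42 °C (orange) and 44 °C (red), 1 array per point; solid lines are the brighter probe set, dashed lines the dimmer, and grey lines the control array. The brighter probe set climbs from 85.3 in the control to 905 at 1 h after 42 °C and to 820.2 at 3 h after 44 °C, and starts below the control at 41.8 after 44 °C.

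Of the 6 genes of ribosomal DNA transcription, the polymerase subunits POLR1A, POLR1B and POLR1C and the selectivity factor subunit TAF1D fell on some array, and UBTF and RRN3 did not. POLR1A, the largest and catalytic subunit of RNA polymerase I, had a signal of 128 in the control, then 129, 109.6, 78.9 and 52.0 after 42 °C and 138, 96.9, 74.4 and 53.9 after 44 °C. Each later array was lower than the one before it at both temperatures, and POLR1A fell at 6 h with log2 folds of -1.30 and -1.24. Its other probe sets ranged from -1.34 to -0.44 at 6 h after 42 °C and from -1.29 to -0.44 after 44 °C.

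POLR1B, the second catalytic subunit, had 488 in the control, 587, 498, 314 and 251 after 42 °C, and 697, 533, 408 and 235 after 44 °C. The arrays at 0 h were above the control and the arrays at 3 and 6 h below it. POLR1B fell at 6 h after 44 °C (-1.06), and its value after 42 °C was -0.96. Its other probe sets gave -1.59 to -0.15 at 6 h after 42 °C and -1.17 to -0.54 after 44 °C. The fall after 44 °C is -0.85 without scaling and -0.85 with the median over its probe sets. POLR1C, a subunit that RNA polymerases I and III share, had 837 in the control, 655, 430.1, 371 and 407 after 42 °C, and 961, 692, 342 and 466 after 44 °C. At both temperatures it was lower at 3 h than at 6 h, unlike POLR1A and POLR1B, and it fell at 3 h (-1.17) and 6 h (-1.04) after 42 °C and at 3 h (-1.29) after 44 °C. At 6 h after 44 °C its log2 fold was -0.85, and its other probe set gave -0.98 there. The fall at 6 h after 42 °C is -0.96 with scaling by the median gene, the fall at 3 h after 44 °C is -0.98 without scaling, and against the 0 h array of 42 °C the values at 3 and 6 h are -0.82 and -0.69.

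TAF1D, a subunit of the selectivity factor that recruits the polymerase, had 95.5 in the control, 50.1, 55.7, 52.3 and 96.4 after 42 °C, and 79.8, 50.05, 33.7 and 87.2 after 44 °C. It fell at 3 h after 44 °C, with a log2 fold of -1.50, and at 6 h had log2 folds of 0.014 and -0.13 after 42 and 44 °C. Where POLR1A was lowest at 6 h, TAF1D was back at the control. With a floor at the 70th percentile the fall at 3 h is -0.89. UBTF, which binds and opens the ribosomal DNA, and RRN3, which joins the polymerase to its promoter, stayed within 1.5-fold of the control throughout by their chosen probe sets. At 6 h UBTF had log2 folds of 0.20 after 42 °C and 0.30 after 44 °C, and RRN3 had -0.16 and 0.37. The other UBTF probe sets above the floor had -0.85 to -0.12 after 42 °C and -0.40 to 0.18 after 44 °C, so the direction for UBTF depends on the probe set. The median of the 6 transcription genes at 6 h was -0.56 after 42 °C and -0.49 after 44 °C.

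**Figure D2:**
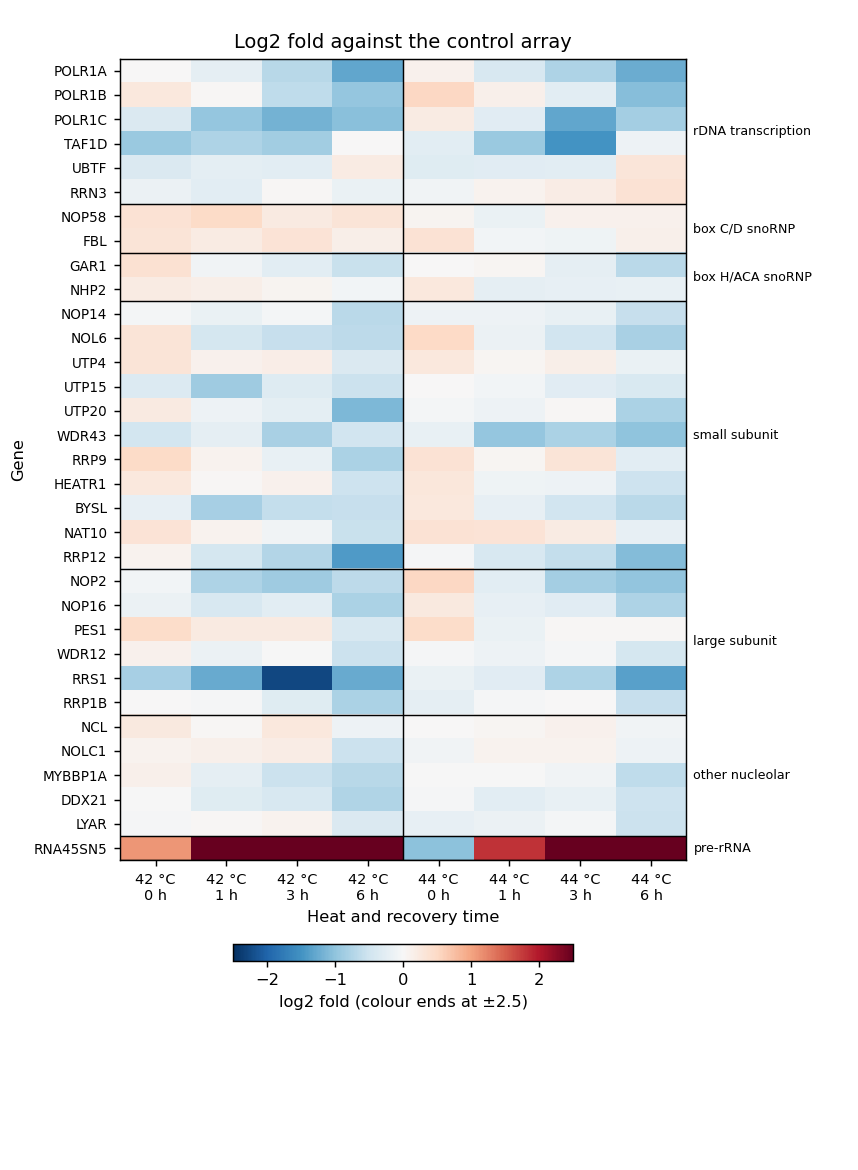
Log2 fold against the control array for the 33 measured genes (rows, by role) on the 8 heated arrays (columns, by temperature and recovery time); blue is lower, red is higher, and colour ends at 2.5 in size. The columns at 6 h are blue for most protein-coding genes, while RNA45SN5 in the bottom row is red from 1 h on.

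Of the 11 small subunit factors, every member was below the control at 6 h after either temperature, with medians of -0.57 and -0.58. Among genes above the floor on all arrays, 53.4% and 55.1% were below the control at 6 h. RRP12, which takes part in maturation and export of the small subunit precursor, had 461 in the control, 491, 339, 277 and 172 after 42 °C, and 452, 349, 306 and 217 after 44 °C. From 0 h on, each array was lower than the one before, and RRP12 fell at 6 h (-1.42 and -1.08). Of its other probe sets, the brightest gave -1.53 and -0.97 at 6 h, and the remaining 3 were at or near the floor, up to 19.4. The median signal of its 5 probe sets therefore gives 0.63 at 6 h after 42 °C and -0.00067 after 44 °C, and without scaling the value after 44 °C is -0.88. UTP20, a scaffold protein of the processome, had 174 in the control, 205, 159.8, 147 and 79.4 after 42 °C, and 168, 160.3, 179 and 99.9 after 44 °C. It was close to the control up to 3 h after 44 °C and low at 6 h at either temperature, and fell at 6 h after 42 °C (-1.13), with -0.80 after 44 °C.

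WDR43, of the processome's early subcomplex that links transcription to processing, had 195 in the control, 142, 168, 111 and 139.9 after 42 °C, and 170.4, 99.5, 113.5 and 97.5 after 44 °C. All 8 heated arrays were below the control, and the log2 fold at 6 h after 44 °C was -0.99999, just short of the limit. Of the other factors of that subcomplex, at 6 h UTP4 had log2 folds of -0.36 and -0.16, UTP15 had -0.54 and -0.38, and HEATR1 had -0.52 and -0.51. UTP15 and BYSL, a late small subunit factor, had their lowest values already at 1 h after 42 °C, with log2 folds of -0.89 and -0.82. At 1 h after 44 °C they had -0.073 and -0.20. The other probe set of UTP15 gave -0.56 and -0.48 at 1 h, and was lowest at 6 h after 42 °C (-0.86). At 6 h after 42 and 44 °C BYSL had -0.57 and -0.67. The processome proteins NOP14 and NOL6 had -0.68 and -0.58, and -0.65 and -0.82. RRP9, of the snoRNA particle that directs early cuts, had -0.79 and -0.26. NAT10, an RNA acetyltransferase, had -0.55 and -0.20.

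RRS1, which helps bring a small ribosomal RNA and its proteins into the large subunit, moved most among the protein-coding members. Its signal was 786 in the control, 445, 326, 162 and 327 after 42 °C, and 701, 649.9, 458 and 308 after 44 °C. All heated arrays were below the control, with the lowest signal at 3 h after 42 °C and the arrays of both temperatures close to each other at 6 h. RRS1 fell at 1 h (-1.27), 3 h (-2.28) and 6 h (-1.26) after 42 °C, and at 6 h (-1.35) after 44 °C. Against the 0 h array of 42 °C, which was itself low, the values at 1 and 6 h after 42 °C are -0.45 and -0.44. The value at 3 h after 42 °C was the lowest log2 fold of any member on any array, beside a robust SD of 0.31 for genes of its signal.

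The other large subunit factors were less far from the control. NOP2, a ribosomal RNA methyltransferase, had log2 folds of -0.77, -0.89 and -0.65 at 1, 3 and 6 h after 42 °C, and -0.26, -0.86 and -0.99 after 44 °C, the last just short of 2-fold. NOP16 had -0.78 and -0.78 at 6 h and RRP1B, linked to the same particles, -0.80 and -0.57. A dimmer NOP16 probe set, with 587 in the control, gave -1.06 and -1.06 at 6 h, past 2-fold. The remaining NOP16 probe sets were at or near the floor. PES1 and WDR12 form a complex with BOP1 that acts in large subunit processing. At 6 h PES1 had -0.39 after 42 °C and 0.035 after 44 °C, and WDR12 had -0.53 and -0.43. The median of the 6 measured large subunit genes at 6 h was -0.72 and -0.67.

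**Figure D3:**
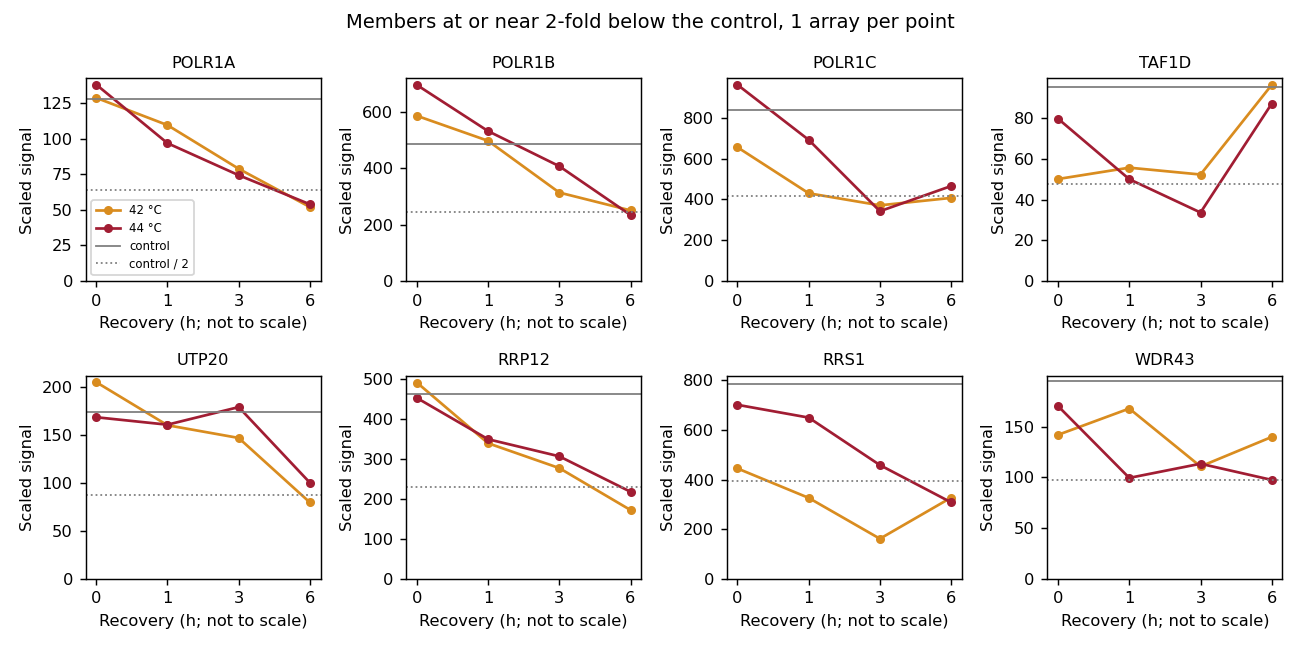
Scaled signal (linear axis from 0) of the 7 genes that fell 2-fold or more on some array, and of WDR43, against recovery time in h after 42 °C (orange) and 44 °C (red), 1 array per point; the grey line is the control and the dotted line is the control divided by 2. POLR1A, RRP12 and UTP20 reach their lowest signals at 6 h, TAF1D returns to 96.4 and 87.2 at 6 h, and RRS1 is lowest, at 162, at 3 h after 42 °C.

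The modification particles did not share the late lowering evenly. NOP58 and FBL, the core and the methyltransferase of box C/D particles, were at or above the control at 6 h, with log2 folds of 0.31 and 0.10 for NOP58 and 0.15 and 0.12 for FBL. NOP58 was lowest at 1 h after 44 °C (-0.17) and highest at 1 h after 42 °C (0.48). Of the box H/ACA proteins, GAR1 had -0.55 and -0.67 at 6 h and NHP2 had -0.075 and -0.19. NOP56 and DKC1, the partners of these proteins, have no value, so each kind of particle rests on 2 genes.

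Among the other nucleolar proteins, DDX21, a helicase, had log2 folds of -0.74 and -0.52 at 6 h, and MYBBP1A, a nucleolar protein that also binds transcription factors, had -0.70 and -0.63. The other MYBBP1A probe set, with 83.7 in the control, gave -2.20 and -1.06 at 6 h, past 2-fold. NCL, the abundant nucleolar RNA-binding protein, had -0.12 and -0.084, and the chaperone NOLC1 had -0.54 and -0.12. LYAR had -0.36 and -0.53. Over all 8 heated arrays, 25 of the 32 protein-coding members stayed within 2-fold of the control by their chosen probe sets, and 13 within 1.5-fold. These counts were not made over all genes. By their chosen probe sets these 13 were UBTF, RRN3, NOP58, FBL, NHP2, UTP4, HEATR1, NAT10, PES1, WDR12, NCL, NOLC1 and LYAR. Of these, HEATR1 and WDR12 have dimmer probe sets that passed 2-fold. Those of HEATR1 reached 1.34 at 0 h after 42 °C and -1.13 at 6 h after 44 °C. Those of WDR12 gave -1.99 and -1.02 at 6 h after 42 °C.

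The order of arrays within each temperature does not rest on the control, but it can shift with the scaling. Of the 4 recovery times, the array at 6 h was the lowest for 22 of 32 members after 42 °C and for 24 after 44 °C. The array at 0 h was the highest for 21 and for 21. A lower signal at every step from 0 to 6 h was measured for 13 and for 13. These counts were not made over all genes, so whether the order is particular to the members was not tested. The median log2 step of the members was -0.24 from 0 to 1 h, -0.097 from 1 to 3 h and -0.33 from 3 to 6 h after 42 °C, and -0.24, -0.027 and -0.34 after 44 °C. After scaling, the first and the last step were thus the larger at both temperatures. Without scaling the members' median against the control was 0.040, -0.40, -0.97 and -1.16 at 0, 1, 3 and 6 h after 42 °C. After 44 °C it was 0.068, 0.21, 0.13 and -0.32, so the sizes of the steps depend on the scaling. Over the last step RNA45SN5 was also lower.

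**Figure D4:**
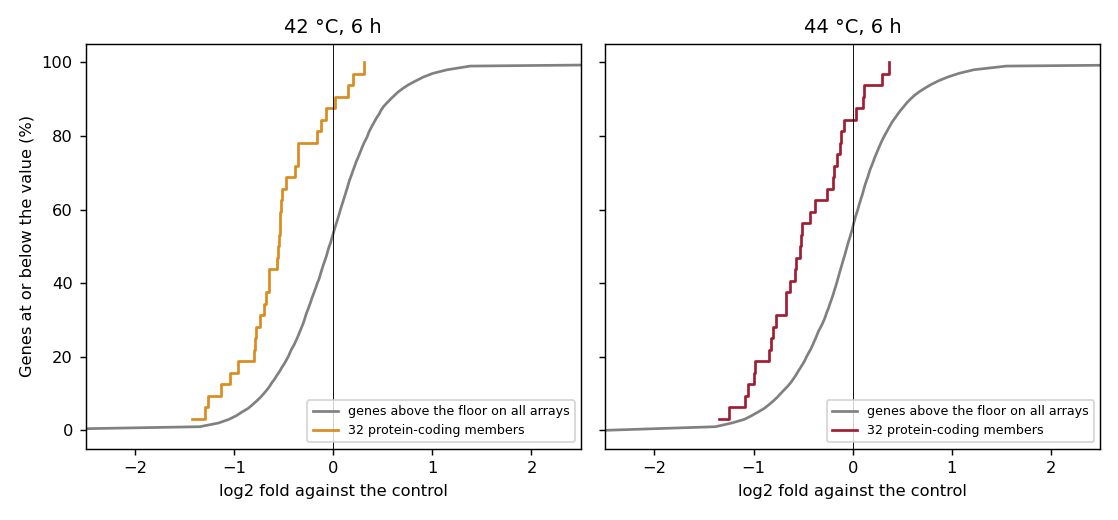
Share of genes (%) at or below each log2 fold against the control at 6 h after 42 °C (left) and 44 °C (right), for the 32 protein-coding members (coloured steps) and the 9913 genes above the floor on all arrays (grey). The member curves lie to the left of the grey curves, around medians of -0.55 and -0.52, and end at log2 folds of 0.31 and 0.37.

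Set side by side at matched recovery times, 44 °C and 42 °C gave nearly the same members' median after scaling: the log2 difference of 44 °C over 42 °C was 0.020, 0.017, 0.016 and 0.060 at 0, 1, 3 and 6 h. Without scaling the members' median is 0.61, 1.03 and 0.87 at 1, 3 and 6 h. The median of genes above the floor is then 0.61, 1.03 and 0.81, so the likeness depends on the scaling. The RNA45SN5 values below shift with the scaling too. Single members differed more. RRS1 was 2.84-fold higher at 3 h after 44 °C than after 42 °C (458 against 162), and its log2 difference was 0.99 at 1 h and -0.087 at 6 h. It was the only protein-coding member that passed 2-fold upward, at 3 h alone, where 1.02% of all genes did. At 0, 1 and 6 h, where none did, 1.59%, 1.01% and 0.85% of all genes were higher. No protein-coding member was lower by 2-fold, beside 0.753%, 1.27%, 0.976% and 1.37% of all genes. RNA45SN5 was lower after 44 °C at 0 and 1 h, with log2 differences of -2.14 and -1.61, and had 0.078 and 0.17 at 3 and 6 h.

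At 1 h the differences between temperatures had both signs. UTP15 (0.82), POLR1C (0.69), BYSL (0.63) and NOP2 (0.51) were higher after 44 °C, and WDR43 (-0.75), NOP58 (-0.65) and PES1 (-0.40) were lower. The other probe set of UTP15 gave 0.073 there, and that of POLR1C 1.08. TAF1D turned over time, from 0.67 at 0 h to -0.64 at 3 h. At 6 h the largest differences were those of RRN3 (0.54), RRP9 (0.53) and WDR43 (-0.52).

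A wider set of ribosome biogenesis genes showed the same late direction with a smaller median. It held 125 measured genes, all above the floor on all arrays: 10 further RNA polymerase I genes, 42 small subunit factors, 46 large subunit factors, 12 snoRNA particle genes and 15 exosome and linked genes. The median of the 125 was -0.27 at 6 h after 42 °C and -0.19 after 44 °C. After 42 °C, 1, 2, 9 and 7 of them fell at 0, 1, 3 and 6 h, or 0.8%, 1.6%, 7.2% and 5.6%. Of all 19775 genes, 2.41%, 1.53%, 3.08% and 2.38% fell at these times. After 44 °C, 0, 0, 0 and 5 of the 125 fell, the last being 4%. Of all genes, 1.03%, 0.455%, 1.41% and 2.64% fell there. Like the 125, the 9913 genes above the floor on all arrays exclude genes at the floor. Of these 9913, 3.84%, 2.36%, 4.91% and 3.71% fell after 42 °C. After 44 °C the shares were 1.39%, 0.393%, 2.09% and 4.28%, so the 4% at 6 h was not above that share. TENT4B at 3 h after 42 °C was the only gene of the 125 that rose against the control. On that array 1.98% of all genes rose. By list, the small subunit genes had -0.36 and -0.33 at 6 h and the large subunit genes -0.28 and -0.27. The snoRNA particle genes had -0.077 and -0.027, the exosome genes -0.20 and -0.046, and the further RNA polymerase I genes -0.010 and -0.0019.

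The 3 genes of each direction with the largest mean over the 8 comparisons were named. IMP3, of a small subunit processing complex, had 1314 in the control, 843, 631, 389 and 645 after 42 °C, and 1549, 1138, 710.4 and 618 after 44 °C. Like RRS1 it was lowest at 3 h after 42 °C, and the temperatures were alike at 6 h (-1.03 and -1.09). NAF1, an assembly factor of box H/ACA particles, fell to a log2 fold of -1.87 and PWP2, of the processome, to -1.39 at 6 h after 42 °C, with -0.94 and -1.44 after 44 °C. On the other side, TENT4B, a polymerase that adds tails to RNA for the exosome, had 0.60 and 0.96, the large subunit factor NVL 0.63 and 0.16, and TEX10, of a large subunit complex, 0.31 and 0.63 at 6 h.

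**Figure D5:**
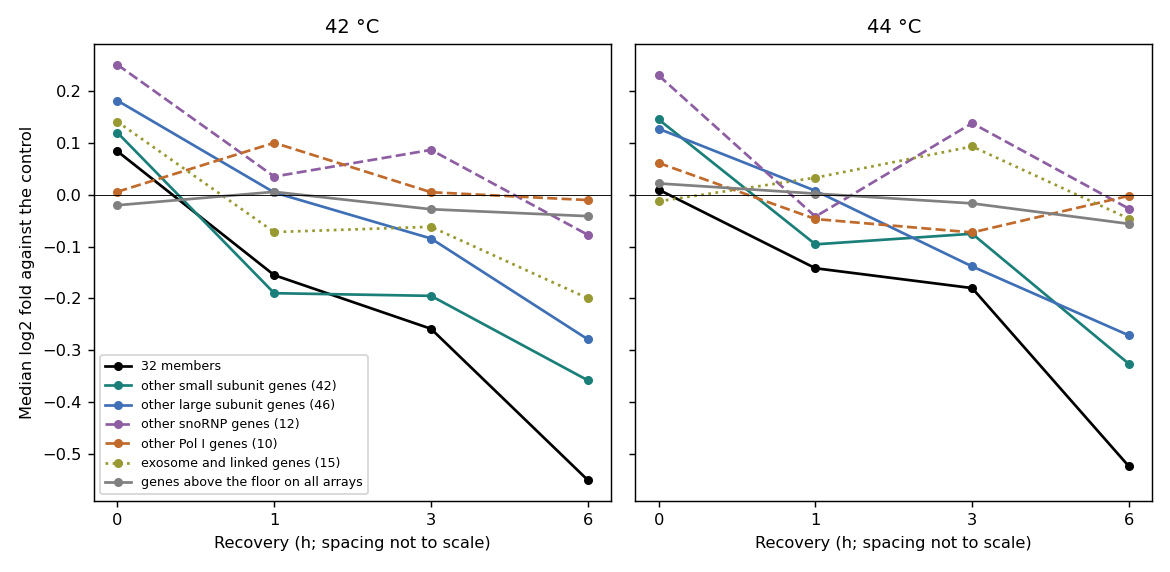
Median log2 fold against the control for the 32 protein-coding members (black), the 5 wider lists (coloured) and the 9913 genes above the floor on all arrays (grey), against recovery time in h after 42 °C (left) and 44 °C (right). At 6 h the members are lowest at -0.55 and -0.52, the other small subunit genes are at -0.36 and -0.33, and the further RNA polymerase I genes lie near 0.

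Some members carry snoRNAs in their introns, and of 8 such hosts NCL, NOP58, TAF1D and WDR43 were measured. Their median log2 fold at 6 h was -0.055 after 42 °C and -0.11 after 44 °C, and at 1 h it was -0.091 and -0.55. The 4 hosts did not move together. At 1 h after 44 °C WDR43 had -0.97 and TAF1D -0.93, while NOP58 had -0.17 and NCL 0.055. At 6 h the hosts ran from -0.48 to 0.31 after 42 °C and from -0.99999 to 0.10 after 44 °C. The 28 other protein-coding members had medians of -0.61 and -0.55 at 6 h and of -0.16 and -0.13 at 1 h after 42 and 44 °C.

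MYC, a transcription factor known to act on ribosome biogenesis genes, had 3123 in the control, 614, 564, 607 and 1200 after 42 °C and 2567, 1914, 787 and 859 after 44 °C. It was low from 0 h on after 42 °C and from 3 h on after 44 °C.

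The letters CACGTG, the E-box that MYC and related factors bind, were sought in the 250 bases before the starts of members, in RefSeq promoter windows on GRCh38.p14. The motif reads the same on both strands. Of the 38 members, 31 had a window, with 39 windows in all, and CACGTG lay in 5 of the 39 (12.8%) and in 5 of the 31 genes. Of all 35116 windows in the table, 2228 (6.34%) held it. The 100 bases before the start are given for these 5 genes, with CACGTG in capitals, and for POLR1A and POLR1C, which fell and have no CACGTG there.

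UTP20: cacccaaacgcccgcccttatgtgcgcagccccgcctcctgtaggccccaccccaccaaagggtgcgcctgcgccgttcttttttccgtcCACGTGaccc
NAT10: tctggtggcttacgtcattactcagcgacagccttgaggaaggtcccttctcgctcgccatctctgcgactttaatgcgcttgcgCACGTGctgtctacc
UTP4: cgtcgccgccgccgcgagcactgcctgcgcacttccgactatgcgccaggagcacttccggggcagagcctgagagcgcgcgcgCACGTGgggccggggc
DDX21: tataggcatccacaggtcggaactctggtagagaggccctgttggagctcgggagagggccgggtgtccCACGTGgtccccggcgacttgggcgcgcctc
LYAR: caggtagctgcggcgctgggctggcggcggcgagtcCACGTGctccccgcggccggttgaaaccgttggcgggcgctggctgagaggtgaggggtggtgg
POLR1A: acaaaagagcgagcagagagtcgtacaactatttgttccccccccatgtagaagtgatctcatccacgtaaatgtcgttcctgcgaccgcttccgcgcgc
POLR1C: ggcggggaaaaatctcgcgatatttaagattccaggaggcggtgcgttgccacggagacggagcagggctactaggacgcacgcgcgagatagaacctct

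They lie at chr12:101280005-101280104 (UTP20, plus strand), chr11:34105529-34105628 (NAT10, plus), chr16:69132549-69132648 (UTP4, plus), chr10:68956547-68956646 (DDX21, plus), chr4:4290022-4290121 (LYAR, minus), chr2:86105887-86105986 (POLR1A, minus) and chr6:43516989-43517088 (POLR1C, plus). Each is upstream of the start of its own window and outside the transcript that begins there. The stretches of DDX21 and LYAR lie downstream of a further start of the same gene, so they can lie within the transcript from that start. The first base of CACGTG lies at -10 in UTP20, -15 in NAT10, -16 in UTP4, -31 in DDX21 and -64 in LYAR relative to the start, and DDX21 and LYAR each have a further start whose window lacks it. The 5 members with CACGTG had a median log2 fold of -0.55 at 6 h after 42 °C and -0.52 after 44 °C, and the 22 measured members with a window but no CACGTG had -0.55 and -0.55. The values at 6 h were therefore alike with and without the motif. A heat shock element, taken as 3 alternating GAA and TTC triplets each 2 bases apart and starting with either, was in 0 of the 39 windows and in 155 (0.441%) of all windows. A match is only a run of letters, and binding was not measured.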

How the data were processed

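Total RNA was labelled with a 3′ amplification kit and hybridised to Human Genome U133 Plus 2.0 arrays, per the labels' protocols. The deposited values are intensity signals made with MAS5, per the submitters' processing notes; the scaling target is not given in the sources used here. Each of the 9 arrays was scaled to a 2% trimmed mean of 100 over 54613 probe sets that are not controls, lower values were set to the overall median of 12.5, and log2 signals were compared. Of 54675 probe sets, 41091 had 1 gene symbol, 1801 several and 11721 none, and 62 were controls; 41037 matched RefSeq by gene number. Members, lists and alternatives were chosen with earlier results of these data known. Named genes were the members, the 3 wider genes per direction with the largest mean log2 fold over the 8 heated arrays, and MYC. Python 3.11.15, numpy 2.4.6 and pandas 2.3.3 were used, and the calling was tested on simulated data. Alternatives varied the scaling, floor, probe set choice, size rule and baseline. Promoter windows were not found for NOP58, RRP12, BOP1, RRS1, RRP1B, NOLC1 and RNA45SN5.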

Additional observations from a re-analysis of the deposited data

Results flagged for a closer look

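RNA45SN5 drew attention because the 2 temperatures moved it in opposite directions at 0 h, with log2 folds of 1.11 after 42 °C and -1.03 after 44 °C against the same control array. Each value is 1 array, and the difference was not tested.

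Signals above the control array also appeared among control probe sets that no comparison used, and which carry no gene name in the annotation. AFFX-M27830_5_at had 127 in the control and its highest scaled signal, 11365, at 0 h after 44 °C, with 1246 at 0 h after 42 °C and 309 and 266 at 6 h. AFFX-M27830_M_at had 580 in the control and at most 2673, at both 0 h and 6 h after 44 °C. Its lowest signal on a heated array was 1736, at 3 h after 44 °C. AFFX-M27830_3_at had at most 41.5, at 1 h after 42 °C. AFFX-HUMRGE/M10098_3_at, AFFX-HUMRGE/M10098_5_at and AFFX-HUMRGE/M10098_M_at had their highest signals at 3 h after 42 °C, at 148, 85.5 and 79.5. At 0 h after 44 °C the first of these had a log2 fold of -0.66 against the control, the second -1.11 and the third 0.42. The control probe sets thus did not all move in the same direction. Which RNA they read was not analysed here, so they were not set beside RNA45SN5. None of these differences was tested.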

How the results depend on the processing

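Quantile normalisation, scaling by the median gene and a floor at the 25th percentile moved none of 48 summary values by more than the spread or by 1.5 times. Deposited values without further scaling shift all genes, by -0.74 at 3 h and -0.65 at 6 h after 42 °C in the median, and moved most. After 42 °C the members lower by 2-fold were then 6, 14 and 22 at 1, 3 and 6 h, the median was -0.97 and -1.16 at 3 and 6 h, and RNA45SN5 was 2.48 and 1.97. After 44 °C 1 and 2 members fell at 3 and 6 h, the median was 0.21 and 0.13 at 1 and 3 h, and RNA45SN5 was 2.15 at 1 h. For 44 °C over 42 °C, 5, 19 and 11 members were higher at 1, 3 and 6 h, with medians of 0.61, 1.03 and 0.87 and RNA45SN5 at -1.01, 1.10 and 0.98. With the median over a gene's probe sets, 2 members fell at 1 h after 42 °C and 2 at 6 h after 44 °C, 1 was higher at 6 h after 44 °C than after 42 °C, RNA45SN5 was 2.97 at 1 h after 42 °C, and its difference between temperatures was -1.69 and -1.22 at 0 and 1 h. With probe sets that end in neither _s_at nor _x_at, 2 members fell at 1 h after 42 °C, and 1, 1 and 2 were higher after 44 °C at 0, 1 and 3 h. RRP12 at 6 h after 42 °C turned to 0.63 under both probe set rules, since 3 of its probe sets lie at or near the floor. At 1.5-fold, 2, 6, 9 and 14 members were lower after 42 °C and 2, 7 and 13 at 1, 3 and 6 h after 44 °C; between temperatures 3 and 4 were higher at 0 and 1 h, and 2 and 1 lower at 1 and 3 h. Against each temperature's own 0 h array, 0 and 1 members fell at 1 and 3 h after 42 °C and 8 at 6 h after 44 °C, and RNA45SN5 was 2.30, 2.08 and 1.47 after 42 °C and 2.83, 4.29 and 3.78 after 44 °C. A floor at the 70th percentile left 1 member lower at 3 h after 44 °C. RNA45SN5 at 0 h lost 2-fold after 44 °C with that floor (-0.73), without scaling (-0.97) and with the probe set median (-0.87, and 0.82 after 42 °C). Of the 22 calls of members against the control, RNA45SN5 included, the fewest were kept with the median over probe sets (17 of 22), then against the own 0 h array (16 of 20 with a value) and without scaling (18 of 22). No paired analysis was possible because each condition has 1 array. The number of arrays limits every value.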
